A study of Homo sapiens with 8 samples.

Results

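KMS34 is a human multiple myeloma cell line, and it was compared here with 3 other myeloma lines, KMS11, KMS18 and OPM2. It contributed 2 of the 8 arrays of the study, those labelled KMS34, and the other lines contributed 6. According to the labels each line carries t(4;14), a translocation that joins the immunoglobulin heavy chain locus to the region of NSD2 and FGFR3. For every line the study hybridised RNA from 1 control culture and from 1 culture in which MMSET I, a short isoform encoded by NSD2, had been knocked down. Lentivirus was given to both cultures with 8 µg/mL polybrene, and they were collected 48 h after the medium was renewed, and the series text, which names KMS11 alone, gives 72 h of shRNA treatment. The groups are thus KMS34 with its control and knockdown culture, and KMS11, KMS18 and OPM2 with theirs, and every culture had been through infection. Neither the shRNAs nor the kind of control were specified in the sources used here. The question was which genes and gene families were high or low in KMS34, with treatment as a covariate. The effect of the knockdown itself is not described. KMS34 is a single established line, so its 2 arrays measure 1 line under different treatments. They are not replicates of a type of myeloma.

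Multiple myeloma is a cancer of plasma cells, the antibody-secreting end stage of the B lymphocyte lineage. On the way to a plasma cell the regulators IRF4 and XBP1 are switched on, the secretory pathway expands, and many genes of the resting B cell, such as PAX5 and its targets, are switched off. In t(4;14) myeloma the immunoglobulin enhancers are brought next to NSD2, a histone H3 lysine 36 methyltransferase, and often next to the receptor tyrosine kinase gene FGFR3. LETM1 lies between these genes.

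Values are the array intensities on the scale in which they were deposited, and differences are KMS34 minus the mean of the 6 other arrays on the log2 scale. Genes were tested where their mean lay above the 25th percentile, an intensity of 46.7 that is called the dim limit here, which left 11109 of 14812 genes. Across them the 2 KMS34 arrays correlated at 0.993, KMS34 arrays with arrays of other lines at 0.892 to 0.915, and arrays of different other lines at 0.880 to 0.895. The plasma cell genes IRF4, XBP1, SDC1 and MZB1 were far above the dim limit in KMS34. IRF4 measured 3186 in the control and 3032 in the knockdown culture, against 2254 to 4673 (median 2707) in the other lines. CD38 measured 168 and 168, within its range of 50.6 to 416 (median 265) elsewhere. Of the 3 B lymphocyte markers with a row, CD22 (46.1 and 46.1) was just below the dim limit in KMS34, PAX5 (70.7 and 66.8) was above it, and BANK1 (396 and 366) was far above it. The T and NK cell markers CD2 (52.3 and 47.6), GNLY (47.2 and 48.2) and NKG7 (68.0 and 88.6) were above the limit in KMS34, CD2 and GNLY narrowly. PAX5, CD22, CD2, GNLY and NKG7 did not pass the test against the other lines. The dim limit is a percentile of gene means and not a detection threshold, so a value above it does not by itself show expression. Of the 4 myeloid markers CD14 and LYZ were below the dim limit on all 8 arrays, and CSF1R (78.0 and 71.0) and CD68 (106 and 99.2) were above it on all 8. The epithelial marker EPCAM was at 54.0 and 65.6. NSD2, whose short isoform was targeted, measured 744 in the control and 677 in the knockdown culture in KMS34 and 549 to 814 (median 704) in the others. The row for NSD2 is not specific to that isoform as far as the files say.

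Both KMS34 arrays lay above all 6 others for 1644 genes (14.8% of those tested) and below all 6 for 1145 (10.3%). With a difference of at least 2-fold the numbers were 263 (2.37%) and 103 (0.927%). In limma's test, with cell line as a random block and Benjamini-Hochberg adjustment over all tested genes, 24 genes were higher in KMS34 (0.216%) and 9 were lower (0.081%) at an adjusted p under 0.05. In all 33 the KMS34 arrays did not overlap the others. They had been chosen to differ, so that this adds nothing to the test. The same test on each other line against its 3 counterparts called 82 genes higher (0.738%) and 9 lower (0.081%) in KMS11, 18 (0.162%) and 26 (0.234%) in KMS18, and 20 (0.18%) and 53 (0.477%) in OPM2. The number of genes that set KMS34 apart was therefore within the range of the other lines in the upward direction. In the downward direction it equalled the lowest, that of KMS11.

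The calls rest on taking the correlation between the arrays of a line as known (0.857) and on a spread between only 3 lines, those other than KMS34. When the 2 arrays of each line were averaged, so that 1 value stood against 3, limma called 0 genes, the smallest adjusted p was 0.376, and 473 genes had an unadjusted p under 0.05. The 33 genes were all among these, with an unadjusted p of at most 0.0068.

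**Figure D1:**
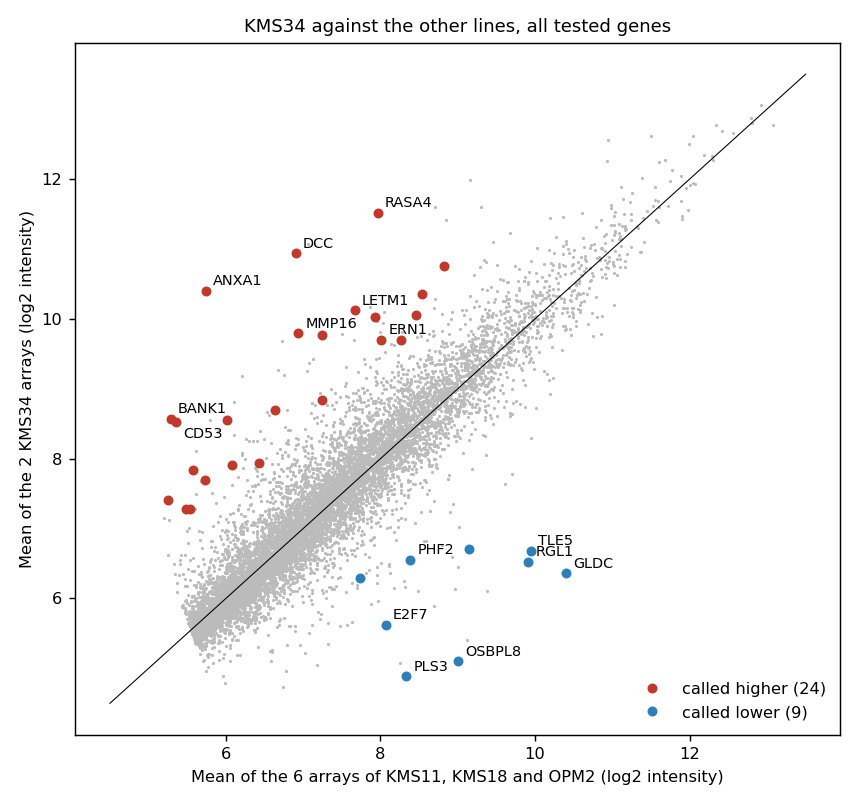
Each grey point is 1 of the 11109 tested genes, with the mean log2 intensity of the 6 arrays of KMS11, KMS18 and OPM2 on the x axis and that of the 2 KMS34 arrays on the y axis. Red points are the 24 genes called higher and blue points the 9 called lower, and the line marks equal values. ANXA1 and DCC stand farthest above the line, and GLDC and OSBPL8 farthest below it.

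Promoter sequence is shown for 4 of these genes. ANXA1 had the largest difference upward, and OSBPL8 and GLDC had the largest differences downward. CD53 was picked from the genes high in KMS34, where DCC, RASA4 and BANK1 also had larger differences than CD53. The 250 bases upstream of the start were taken from RefSeq (GRCh38.p14) and are printed 5′ to 3′ on the strand of the gene. Capitals mark each CG dinucleotide, the site of DNA methylation. ANXA1 lies at chr9:73151615-73151864 on the plus strand, CD53 at chr1:110870960-110871209 on the plus strand, OSBPL8 at chr12:76559772-76560021 on the minus strand and GLDC at chr9:6645730-6645979 on the minus strand.
ANXA1: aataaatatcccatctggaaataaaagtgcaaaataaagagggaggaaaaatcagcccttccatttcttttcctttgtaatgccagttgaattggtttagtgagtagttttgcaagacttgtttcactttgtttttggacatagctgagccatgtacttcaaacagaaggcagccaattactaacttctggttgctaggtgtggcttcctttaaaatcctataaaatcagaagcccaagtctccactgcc
CD53: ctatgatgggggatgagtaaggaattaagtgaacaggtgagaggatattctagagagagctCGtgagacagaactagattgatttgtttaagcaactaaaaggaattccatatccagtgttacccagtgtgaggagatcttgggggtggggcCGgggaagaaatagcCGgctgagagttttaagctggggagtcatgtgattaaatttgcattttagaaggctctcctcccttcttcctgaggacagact
OSBPL8: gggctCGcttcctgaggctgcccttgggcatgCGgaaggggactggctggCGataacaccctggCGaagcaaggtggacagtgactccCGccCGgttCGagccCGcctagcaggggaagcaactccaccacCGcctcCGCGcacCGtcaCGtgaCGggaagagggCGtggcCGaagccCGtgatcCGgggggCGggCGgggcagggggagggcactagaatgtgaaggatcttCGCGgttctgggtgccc
GLDC: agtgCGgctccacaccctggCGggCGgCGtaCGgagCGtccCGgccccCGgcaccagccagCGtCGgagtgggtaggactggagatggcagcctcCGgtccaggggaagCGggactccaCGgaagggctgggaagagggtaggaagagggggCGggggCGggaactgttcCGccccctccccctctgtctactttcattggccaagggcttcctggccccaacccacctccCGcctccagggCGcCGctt
The window of ANXA1, high in KMS34, held 0 CG and that of CD53 held 3, whereas those of OSBPL8 and GLDC, low in KMS34, held 22 and 19. The 4 windows were picked, and the contrast does not extend to the sets. The windows of DCC and BANK1, also high in KMS34, held 10 and 8. RefSeq windows were matched for 18 of the 24 genes called higher, with a median of 15.5 CG and a range of 0 to 33, and for 9 of the 9 called lower, with a median of 22 and a range of 3 to 46. Over 8530 tested genes with a window the median was 20. At most 5 CG were found in 22.2% of the windows in either called set and in 13.1% of all, which for so few genes is 4 and 2 windows. At least 1 CG occurred in 98.8% of all windows. The letters TATAAA, searched on both strands, occurred in 2 of the 18 windows (11.1%) and in 0 of the 9, against 5.81% of all. These are counts of letters. DNA methylation was not measured.

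Apart from ANXA1, the genes described first encode proteins of lymphoid cells, of the cell surface or of blood plasma. ANXA1, which encodes annexin A1, a calcium-dependent phospholipid-binding protein induced by glucocorticoids and a ligand of formyl peptide receptors, measured 1320.4 in the control and 1392 in the knockdown culture of KMS34. In the other lines it ranged from 37.9 to 90.2 (median 47.9). The highest of these came from the KMS18 knockdown culture, and KMS11 and OPM2 were at or near the dim limit. The log2 difference was 4.66 ± 0.45 (SE), with an adjusted p of 0.00648. Of the 10 tested genes for annexins and their receptors ANXA1 alone was called, and the median of the list was -0.09. ANXA2 measured 77.6 and 94.3 in KMS34 against 98.3 to 127 (median 114), below all 6 others, with a difference of -0.40 ± 0.32 (SE) that did not pass the test (adjusted p = 0.9999).

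BANK1 encodes a scaffold protein that couples the B cell receptor to calcium release. Its intensity was 396 in the control and 366 in the knockdown culture of KMS34 and 31.3 to 48.0 (median 40.0) elsewhere, so that only 1 of the 6 other arrays exceeded the dim limit. The difference was 3.29 ± 0.32 (SE, adjusted p = 0.00648). CD53, a tetraspanin of leukocytes that organises other membrane proteins, gave 342 in the control and 395 in the knockdown culture against 33.1 to 49.0 (median 41.5). It was higher by 3.17 ± 0.34 (SE, adjusted p = 0.00786). Because the other lines were near or below the dim limit, the ratios are bounds. Set against the dim limit, the ratio was at least 8.16-fold for BANK1, and for CD53 KMS34 was higher by at least 7.88-fold. MCAM (CD146), an adhesion molecule of the immunoglobulin superfamily, measured 215 and 199.5 against 44.5 to 64.4 (median 49.98), a difference of 1.96 ± 0.27 (SE, adjusted p = 0.0243). EDA2R, a receptor of the TNF receptor superfamily that binds ectodysplasin A2, measured 395 and 434 against 70.4 to 119.6 (median 113). It was higher by 2.05 ± 0.29 (SE, adjusted p = 0.0254). CFI, the serine protease of the complement system that cleaves C3b and C4b, was below the dim limit on all 6 other arrays, at 33.9 to 40.6 (median 39.3), and measured 162 and 179 in KMS34. Its difference was 2.17 ± 0.24 (SE, adjusted p = 0.00844), a ratio of at least 3.66-fold.

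Of the 46 listed B lymphocyte genes 26 were tested, 2 were called higher (BANK1 and CD53) and 0 lower, and the median difference was -0.06, close to the -0.02 of all tested genes. Both called members are markers that had been chosen for their level in KMS34, and their count says nothing independent. In all, 8 of the 26 lay above all 6 other arrays and 3 below, against 14.8% and 10.3% of all tested genes. TLR9, the endosomal receptor for unmethylated CpG DNA, measured 444 and 386 against 91.7 to 131 (median 109.6), but its difference of 1.91 ± 0.34 (SE) did not pass (adjusted p = 0.0665). The germinal centre repressor BCL6 (1.48, adjusted p = 0.384) and the kinase LYN (1.03, adjusted p = 0.184) also lay above the other lines without passing. SPIB, IL4R and HVCN1 lay below them, with differences of -0.46, -0.69 and -0.76, and did not pass either. Members that are named here and did not pass were picked after their values had been seen.

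DCC encodes the receptor through which netrin-1 attracts growing axons. It measured 1930.2 in the control and 1988 in the knockdown culture of KMS34, and 56.2 to 207 (median 149) in the other lines. There KMS18 was lowest, at 56.2 and 59.0, while KMS11 had 151 and 207 and OPM2 had 146 and 194, and both KMS34 arrays were far above them all. The difference was 4.03 ± 0.58 (SE, adjusted p = 0.0257). CNTN1, a cell adhesion molecule anchored in the membrane of axons, measured 239.5 and 243 against 59.9 to 77.1 (median 66.8), higher by 1.84 ± 0.27 (SE, adjusted p = 0.0257). MAP1B, which binds and stabilises microtubules in growing axons, measured 377 and 374 against 49.7 to 91.3 (median 61.7). It was higher by 2.53 ± 0.37 (SE, adjusted p = 0.0257).

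RPH3A, a RAB3 effector of synaptic vesicles, lay at 250.2 and 207 in KMS34 and close to the dim limit in the other lines, at 44.3 to 51.0 (median 47.4). Its difference was 2.26 ± 0.25 (SE, adjusted p = 0.00786). SCAMP5, another membrane protein of secretory vesicles, measured 489.9 and 432 against 139.8 to 183 (median 147), a difference of 1.61 ± 0.26 (SE, adjusted p = 0.0455). KIF21A, a kinesin that limits microtubule growth, gave 872 and 784 against 296 to 337 (median 297), higher by 1.43 ± 0.23 (SE, adjusted p = 0.044). No value for these genes in KMS34 overlapped another line. In the wider family of netrin receptors and axon guidance genes, DCC alone was called of 40 tested members. Of these 40, 3 lay above and 7 below all 6 other arrays, against 14.8% and 10.3% of all tested genes. The median was -0.14. The semaphorin receptor PLXNC1 (0.88, adjusted p = 0.419) lay above the others and PLXNA3 (-0.97, adjusted p = 0.9999) below them.

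MMP16 encodes a membrane-anchored matrix metalloproteinase. It measured 792 in the control and 993 in the knockdown culture of KMS34 against 96.6 to 181 (median 116), higher by 2.85 ± 0.33 (SE, adjusted p = 0.00844). Of 39 tested genes for collagens, laminins and matrix enzymes it was the single call. TIMP1, an inhibitor of metalloproteinases, measured 1261 and 1237 against 254 to 563 (median 513) and lay above all 6 arrays with a difference of 1.58 ± 0.39 (SE) that did not pass (adjusted p = 0.213). The median of the list was -0.04.

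RASA4 and the genes beside it here encode regulators of signalling. RASA4 itself, a calcium-responsive GTPase-activating protein that switches RAS off, measured 3154 in the control and 2730.1 in the knockdown culture of KMS34. The other lines were at 168 to 378 (median 222). The difference was 3.55 ± 0.39 (SE, adjusted p = 0.00786). RASA4 has a near-identical copy, RASA4B, and the probes of the array may not separate the copies, so the value is uncertain as to which copy it measures. RCAN2, a regulator of the phosphatase calcineurin, measured 142 and 169 against 44.9 to 50.4 (median 45.8). The difference was 1.74 ± 0.26 (SE, adjusted p = 0.0294). ELMOD1, a GTPase-activating protein for ARF family proteins, measured 151 and 162 against 41.4 to 47.6 (median 45.2), higher by 1.80 ± 0.23 (SE, adjusted p = 0.0158). For RCAN2 and ELMOD1 the mean of the other lines was below the dim limit, against which KMS34 was higher by at least 3.32-fold and 3.34-fold. RNF187, a RING-type ubiquitin ligase, measured 1332 and 1293 against 322 to 434 (median 369). It was higher by 1.81 ± 0.28 (SE, adjusted p = 0.0321).

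ERN1 encodes IRE1, the stress sensor of the endoplasmic reticulum that splices XBP1 mRNA. KMS34 had 844 in the control and 823 in the knockdown culture, and the other lines 228 to 287 (median 256), a narrow range. ERN1 was higher by 1.70 ± 0.26 (SE, adjusted p = 0.0335). Among 16 tested genes of the unfolded protein response ERN1 was the only call. Of the rest, DDIT3, ATF3, TRIB3 and SEL1L lay above all 6 other arrays, with differences of 1.25, 1.02, 0.87 and 0.67, and CRELD2, ATF6, SDF2L1, CANX and SEC61B lay below them, with differences of -0.53 to -0.40. None of these 9 passed limma's test, and the median of the list was 0.05. Of all tested genes 14.8% lay above and 10.3% below all 6 other arrays. XBP1 itself measured 1779.7 and 1625 in KMS34, inside the range of the others, 1266 to 2766 (median 2187).

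The remaining higher genes act in mitochondria, the Golgi apparatus and the handling of DNA damage. LETM1, an inner mitochondrial membrane protein needed for cation exchange, measured 1139 in the control and 1096 in the knockdown culture of KMS34 and 178 to 254 (median 194) elsewhere. It was higher by 2.46 ± 0.28 (SE, adjusted p = 0.00844). ACSM3, a mitochondrial medium-chain acyl-CoA synthetase, measured 986 and 779 against 113 to 213 (median 151), a difference of 2.54 ± 0.36 (SE, adjusted p = 0.0254). IVD, which acts in the breakdown of leucine, measured 236 and 257 against 77.3 to 95.0 (median 87.0), higher by 1.51 ± 0.24 (SE, adjusted p = 0.0368). Other members of these pathways were not examined as lists.

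HMCES shields abasic sites in single-stranded DNA by binding to them covalently. It measured 1092 and 987 against 206 to 279 (median 245), a difference of 2.09 ± 0.29 (SE, adjusted p = 0.025). OXR1, a protein that protects cells against oxidative damage, measured 1719 and 1749 against 334 to 616 (median 434). It was higher by 1.94 ± 0.32 (SE), with an adjusted p of 0.0499, the largest among the called genes. GOLIM4, a membrane protein of the Golgi, measured 1118 and 1006 against 321 to 395 (median 349) and was higher by 1.59 ± 0.26 (SE, adjusted p = 0.0489). The lower KMS34 array exceeded the highest other array 3.54-fold for HMCES, 2.79-fold for OXR1 and 2.55-fold for GOLIM4.

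**Figure D2:**
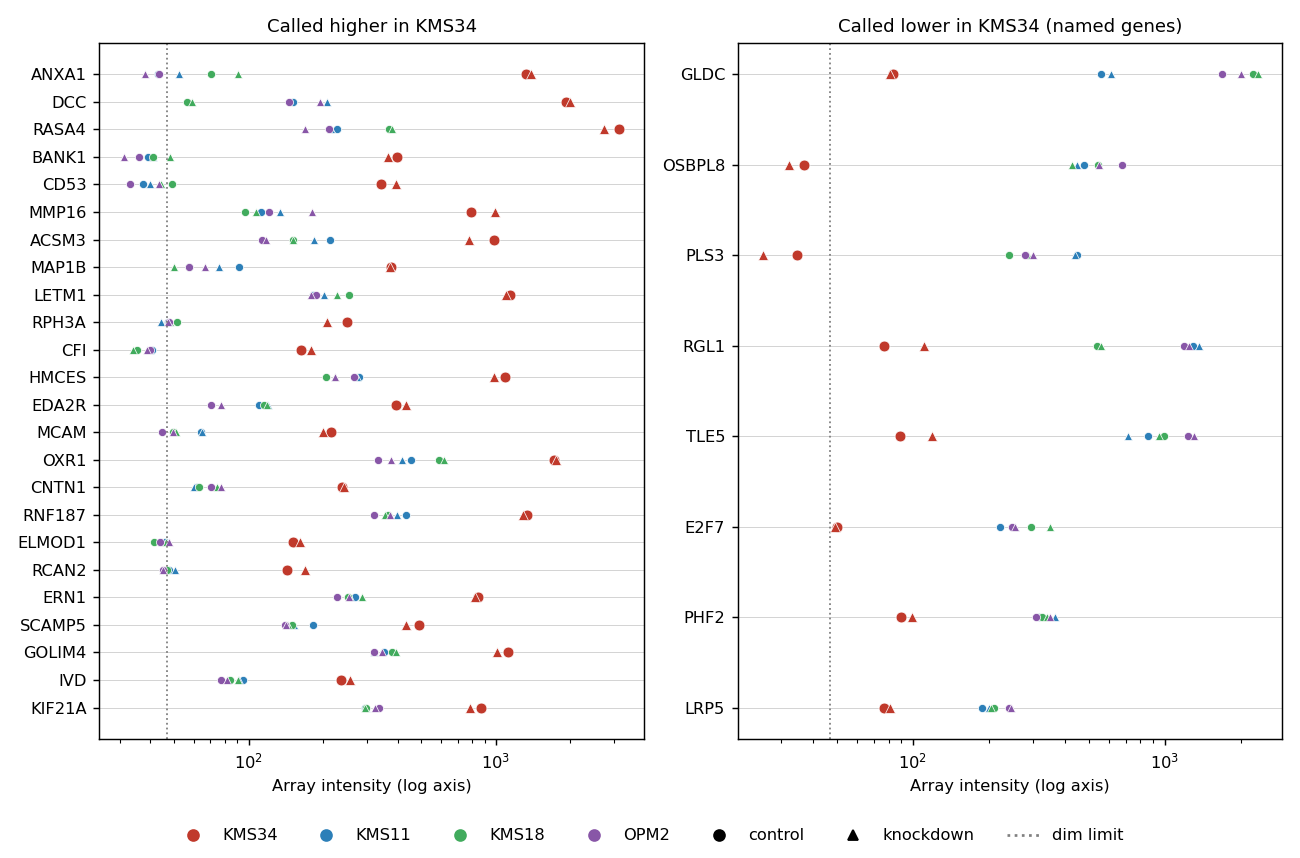
Array intensity (log axis) of the 24 genes called higher (left) and the 8 named genes called lower in KMS34 (right), with 1 point per array, coloured by line. Circles are control and triangles knockdown cultures, and the dotted line is the dim limit of 46.7. The red KMS34 points stand clear of the others in every row, and the 2 KMS34 arrays of a gene differ by at most 0.54 on the log2 scale.

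Fewer genes were low in KMS34. OSBPL8 had the smallest p of all genes. It encodes a lipid transfer protein that exchanges phosphatidylserine and phosphoinositides where the endoplasmic reticulum touches the plasma membrane. KMS34 measured 36.8 in the control and 32.2 in the knockdown culture, both below the dim limit, while the other lines ranged from 428 to 675 (median 510.5). The difference was -3.90 ± 0.27 (SE, adjusted p = 0.000667), and against the dim limit the other lines were at least 11-fold higher. GLDC, the glycine decarboxylase of the mitochondrial glycine cleavage system, had the largest difference. It measured 83.2 and 81.3 in KMS34 against 560.5 to 2338 (median 1848), a difference of -4.04 ± 0.61 (SE, adjusted p = 0.0306). KMS11 was the lowest of the others, at 560.5 and 610.2.

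PLS3, the actin-bundling protein plastin 3, was also below the dim limit in KMS34, at 34.5 and 25.3, against 241 to 448 (median 292). Its difference was -3.45 ± 0.46 (SE, adjusted p = 0.0188), a ratio of at least 6.92-fold. RGL1, an exchange factor for the GTPase RAL, measured 76.6 in the control and 111 in the knockdown culture of KMS34 and 537 to 1369 (median 1222) elsewhere, a difference of -3.38 ± 0.50 (SE, adjusted p = 0.0294). The transcriptional regulators in the set were TLE5, E2F7 and PHF2. TLE5, a short Groucho family protein that modulates the other TLE corepressors, measured 88.7 and 119 against 716 to 1303 (median 971), a difference of -3.27 ± 0.43 (SE, adjusted p = 0.0188). E2F7, an atypical E2F that represses cell cycle genes, measured 49.9 and 48.8 against 222 to 350.4 (median 254), a difference of -2.44 ± 0.28 (SE, adjusted p = 0.00844). PHF2, a histone demethylase of the JmjC family, measured 89.3 and 98.8 against 309 to 367 (median 333), a difference of -1.83 ± 0.22 (SE, adjusted p = 0.0105). The ninth gene carries a LOC symbol and is counted without a name.

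LRP5 encodes a Wnt co-receptor. It measured 76.8 in the control and 80.7 in the knockdown culture of KMS34 against 187 to 246 (median 207), a difference of -1.44 ± 0.24 (SE, adjusted p = 0.0487). In the Wnt list LRP5 was the single call among 33 tested members, beside 0.081% of all tested genes called lower. In that list 1 member lay above and 10 below all 6 other arrays, against 14.8% and 10.3% of all tested genes. The median was -0.19. LEF1, a nuclear partner of beta-catenin, measured 29.0 and 24.5 against 92.6 to 133 (median 104), and the difference of -1.999 ± 0.48 (SE) did not pass (adjusted p = 0.208). Both KMS34 values lie below the dim limit, against which the other lines were at least 2.28-fold higher. The inhibitor NKD2 (-1.51, adjusted p = 0.672) lay below the others, and RNF43 (1.14, adjusted p = 0.208), which removes Wnt receptors from the surface, lay above them.

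The 7 lower genes next in order by unadjusted p, at 2-fold or more, did not pass and are given as values. UGDH, which makes UDP-glucuronate, missed the threshold by the least: 146 and 157 against 366 to 614 (median 459.6), a difference of -1.65 ± 0.28 (SE) and an adjusted p of 0.05003. CUL4A, the scaffold of the ubiquitin ligases that use cereblon, measured 129 and 98.8 against 352 to 427 (median 376), with a difference of -1.74 (adjusted p = 0.0627). AHR, the ligand-activated aryl hydrocarbon receptor, measured 63.5 and 77.7 against 253 to 825 (median 609), with a difference of -2.82 (adjusted p = 0.0665). AMPD1, VPS35L and GSTP1 had differences of -1.76, -2.03 and -1.92. CTAG2, a cancer-testis antigen, had -2.56, and its close relative CTAG1A may share its probes.

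Leaving out 1 of the other lines at a time showed how far the calls depended on that line. Without KMS11, 141 genes were called higher and 30 lower, and 32 of the 33 genes remained among them. Without KMS18 the counts were 18 and 8 with 17 of the 33, and without OPM2 they were 17 and 11 with 18 of the 33. ANXA1, BANK1, CD53, CFI, DCC, HMCES, LETM1, MMP16, RASA4 and RPH3A on the high side and E2F7, OSBPL8, PHF2 and PLS3 on the low side were called each time. The direction of each of the 33 was the same in every setting in which it was tested. The knockdown minus control difference of KMS34 was also set against those of the 3 other lines, 1 value against 3. This gap, KMS34 minus the others, was -0.56 for PLS3, 0.51 for TLE5 and 0.47 for RGL1 (log2). These were the largest gaps among the genes examined for it and were picked after they were seen. Both PLS3 values in KMS34 lie below the dim limit. For the markers ANXA1, DCC, BANK1 and CD53 the gap was -0.08, -0.27, -0.14 and 0.10. With 1 value for KMS34, only the sizes are given.

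Neighbouring genes were examined in the order of the RefSeq table, among tested genes only. On chromosome 4 LETM1 stands between FGFR3 and NSD2, and the 3 genes gave different values. LETM1 was called higher in KMS34. FGFR3 measured 1061 in the control and 889 in the knockdown culture of KMS34 and 1326 to 2410.3 (median 1430.1) elsewhere, below all 6, with a difference of -0.76 ± 0.32 (SE) that did not pass (adjusted p = 0.729). The difference for NSD2 was 0.04 ± 0.25 (SE), and its values overlapped those of the other lines.

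On chromosome 12 OSBPL8 and E2F7, both called lower, are separated by CSRP2 alone among tested genes. CSRP2 was near the dim limit in all lines, at 39.0 and 46.0 in KMS34 and 44.9 to 54.1 (median 48.8) elsewhere, with a difference of -0.20. Genes on either side were not lower. BBS10 had 0.05, overlapping the other lines, and NAP1L1 0.47 before OSBPL8, and SYT1 had 0.86 after E2F7, with NAP1L1 and SYT1 above all 6 other arrays. GLDC on chromosome 9 stood alone in size, with RANBP6 at -0.23 and KDM4C at 0.06 beside it. Next to CD53 on chromosome 1, LRIF1 (1.04, adjusted p = 0.407) and DRAM2 (1.30, adjusted p = 0.323) also lay above all other arrays. KIF21A and CNTN1, both called, are neighbours on chromosome 12, flanked by CPNE8 (1.21) and GXYLT1 (0.51), which lay above the others without passing. ANXA1 was followed by RORB, at 1.06 (adjusted p = 0.722).

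**Figure D3:**
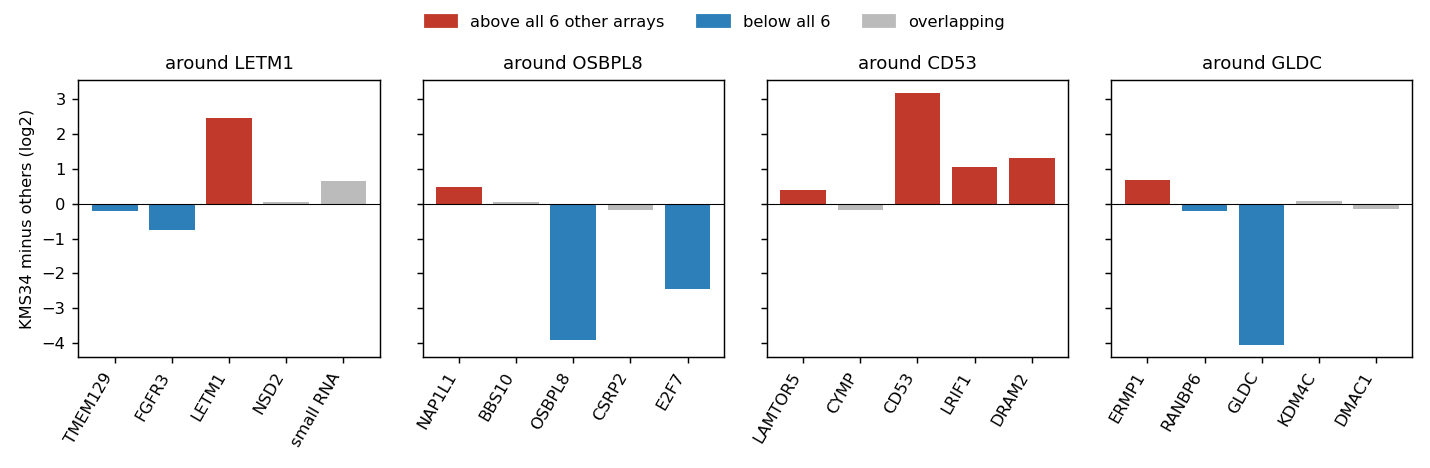
Log2 difference of KMS34 minus the other lines for LETM1, OSBPL8, CD53 and GLDC and the tested genes on both sides of each, in chromosome order and not to genomic scale. Red bars lie above all 6 other arrays, blue bars below all 6, and grey bars overlap them. LETM1 (2.46) stands beside FGFR3 (-0.76) and NSD2 (0.04), and E2F7 (-2.44) shares the panel of OSBPL8 (-3.90).

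No run of 3 or more neighbouring genes was called in 1 direction, so the count of such runs by limma's calls was 0. By overlap alone, 16 of the 33 called genes had a next tested neighbour on the same side of all 6 other arrays, 13 of the 24 higher and 3 of the 9 lower. In the background 25.9% of all tested genes had a next neighbour above the 6 others and 18.9% one below. A rule added after the data were seen, for at least 3 neighbours not overlapping and each at least 1.5-fold apart, found 27 runs, 23 higher and 4 lower. Chromosomes 7 and 12 held 5 each, and chromosomes 8 and 10 held 3 each. On chromosome 17, 1 run was SLFN11, SLFN12 and SLFN13. SLFN11, which blocks replication in cells under replication stress, measured 598 in the control and 567 in the knockdown culture of KMS34 against 43.7 to 217 (median 49.8), a difference of 2.98 ± 0.71 (SE) with an adjusted p of 0.202. SLFN13 had a difference of 2.14, and for SLFN12 the ratio against the dim limit was at least 1.67-fold. On chromosome 5 NUDCD2, HMMR, WWC1, RARS1 and PANK3 had differences of 0.83 to 1.09. On the X chromosome PLXNA3, CTAG1A and CTAG2 were at -0.97, -2.15 and -2.56. PLXNA3 was high in KMS11 alone (327 and 310). It was only slightly lower in KMS34 (63.3 and 55.5) than in KMS18 (72.7 and 69.2) and OPM2 (64.4 and 74.5). CTAG1A and CTAG2 may share probes. Copy number was not measured, and no gene of these 3 runs passed the test.

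The gene lists are described by counts and medians. Across 43 lists 1309 distinct genes were tested, and 7 of them were called, in 7 lists. Of all tested genes 0.216% were called higher and 0.081% lower. The 7 include the markers ANXA1, DCC, BANK1 and CD53, which had been chosen for their level in KMS34. Their part of the count says nothing independent. In the other 36 lists limma called 0 members, while 46 members had an unadjusted p under 0.05 with a higher and 15 with a lower level in KMS34. Among all 11109 tested genes 506 were higher and 206 lower at that threshold, so higher outnumbered lower there too. For the overlap counts and medians that follow, the background is 14.8% of tested genes above and 10.3% below all 6 other arrays and a median difference of -0.02. In bulk RNA such as this, fewer cells of a type cannot be told apart from less RNA per cell.

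Plasma cell identity genes were near the background, with 4 of 22 tested members above and 2 below all 6 other arrays and a median of -0.01. CD320, the transcobalamin receptor, measured 1816 and 1604 against 491 to 806 (median 611), with a difference of 1.45 (adjusted p = 0.0633), and the survival kinase PIM2 and the secretory chaperone MZB1 had 1.11 and 0.91. CD28, a costimulatory receptor, had -0.99. None passed. For tetraspanins, 7 of 24 tested members above and 2 below all 6 other arrays gave a median of 0.29, positive in all settings tried, with TSPAN13 at 1.41 (adjusted p = 0.309) after CD53. Interleukin and cytokine receptor genes had 5 of 44 tested members above and 4 below all 6 other arrays. IL21R measured 960.0 and 808 against 92.8 to 445 (median 157), with a difference of 2.28 (adjusted p = 0.329), and STAT4, which relays cytokine signals to the nucleus, measured 208 and 201 against 39.5 to 72.6 (median 47.5), with a difference of 2.00 (adjusted p = 0.0873). The TNF family ligand CD70 had 1.91, and the NKG2D ligand ULBP1 was at least 2.99-fold above the dim limit, below which the mean of the other lines lay. Neither passed (adjusted p = 0.422 and 0.351). The antigen presentation list had a median of 0.31 and the interferon list one of 0.03, with IFITM1 at 1.26 (adjusted p = 0.127).

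Among the genes of the RAS-MAPK pathway and its feedback, 4 of 33 tested members above and 8 below all 6 other arrays gave a median of -0.09. The lower ones included the ETS factors ETV4 (-0.94), ETV1 (-0.80) and ETV5 (-0.68), the phosphatase DUSP6 (-0.85) and the inhibitor SPRY2 (-0.65), with adjusted p-values of 0.489 to 0.894. In the apoptosis list BCL2 measured 322 and 303 against 686 to 1220.1 (median 1059.5), with a difference of -1.66 (adjusted p = 0.172) and PMAIP1, which encodes the BH3-only protein NOXA, had 1.45. Glycolysis genes had 5 of 9 tested members above and 0 below all 6 other arrays and a median of 0.40, with PGAM1 at 1.16 (adjusted p = 0.701). Of 51 ribosomal protein genes 20 lay above and 3 below all 6 arrays, with small differences (median 0.17, at most 0.95). The cancer-testis antigens had the lowest median of the lists, -0.50 over 12 tested genes. Only 1 of the 12 lay below all 6 other arrays and 1 above, so most members overlapped the other lines.

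The lists of markers of other cell types held 0 called members. T and NK cell markers had 1 of 17 tested members above and 2 below all 6 other arrays and a median of -0.15, myeloid markers had 0 of 7 tested members above and 0 below all 6 other arrays and a median of -0.02, and stromal, endothelial and epithelial markers had 1 of 10 tested members above and 0 below all 6 other arrays and a median of -0.08. The lowest value in the last was EPCAM (-2.80, adjusted p = 0.859), which was bright in KMS11 (548 and 482) and KMS18 (2095 and 2221) and low in OPM2 (57.8 and 70.6) as in KMS34.

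**Figure D4:**
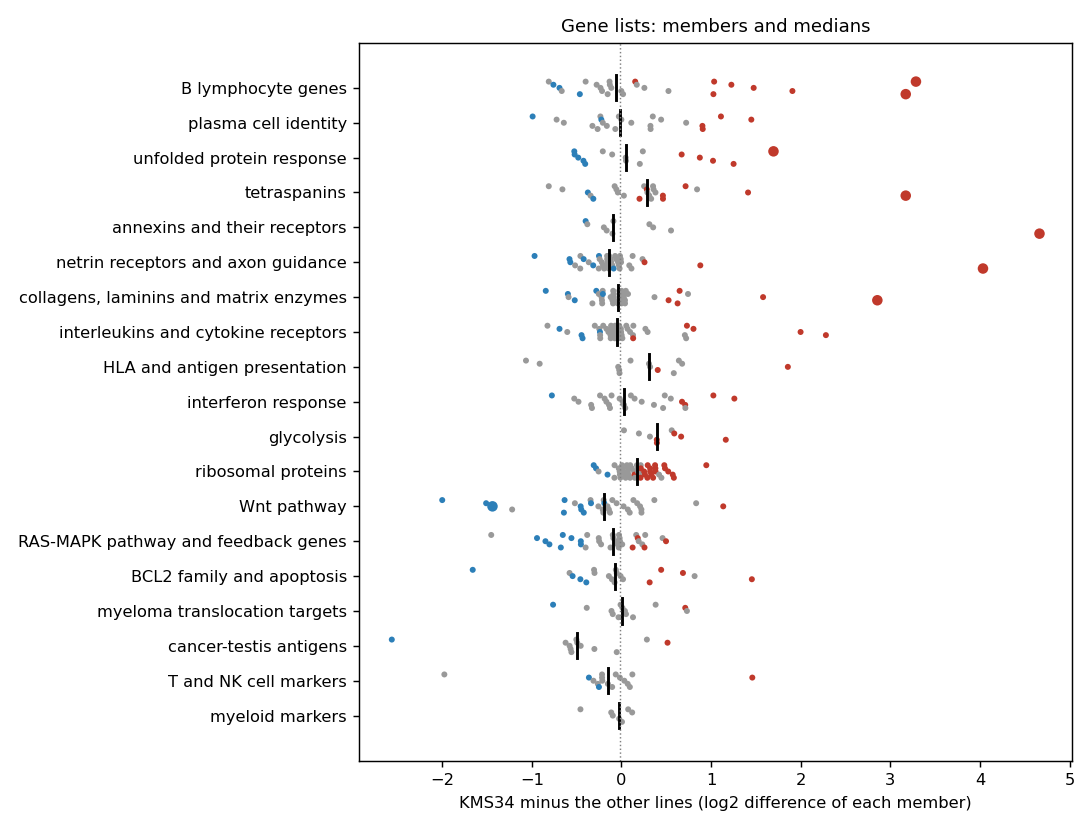
Log2 difference of KMS34 minus the other lines for every tested member of 19 of the 43 gene lists. Points are genes, red where both KMS34 arrays lie above all 6 others, blue where both lie below and grey where they overlap, large where called, and black bars are list medians. The dotted line is the median of all tested genes (-0.02). Single members such as ANXA1, DCC, BANK1 and CD53 stand far to the right of lists whose medians lie near that line.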

How the data were processed

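RNA from 4 myeloma cell lines was measured on 8 Affymetrix Human Gene 2.0 ST arrays, 2 arrays per line. The authors deposited 1 linear intensity per array and transcript cluster, with 44629 rows, and used GeneSpring per the series text; their background correction, normalization and filters are not given in the sources used here. Array medians of 49.3 to 53.5 are close, and scaling to a common level would hide a shift of all genes. That the values are linear was read from their range, so their log2 was taken. Neither raw signals nor detection calls were used, and the number of arrays limits the precision.

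The platform annotation gave exactly 1 symbol for 15835 rows and none for 28794. The brightest row stood for each of 14812 genes (651 had several rows), and 3703 genes with a mean log2 under the 25th percentile (5.54) were left out. Through gene identifiers, all 15835 named rows matched the RefSeq table of GRCh38.p14, which gave gene names and order only, and 0 symbols changed.

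KMS34 was compared with the other lines in limma 3.58.1 (R 4.3.3; lmFit and eBayes) with treatment as covariate, cell line as random block (duplicateCorrelation) and Benjamini-Hochberg adjustment over 11109 genes. Cell line pairs the control and the knockdown array. The spread between lines behind the p-values comes from the 3 lines other than KMS34. The fits were tested on simulated data. No set test was run.

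The genes, the 43 gene lists and the markers were chosen with earlier results of these data known. Named genes were the 4 markers, the 15 called genes with the largest positive and the 15 with the largest negative difference (filled up by unadjusted p with genes of at least 2-fold), up to 3 called members per list and direction, and members of runs. The other called genes are named too, chosen after their values were seen. Small RNA, LOC, antisense and sex-specific symbols were counted but not named. The alternatives were line means, no block or a fixed block, control or knockdown arrays alone, leaving out each line, quantile normalization, median centring, other filters, the mean of a gene's rows, trend and robust eBayes, an added 50, other thresholds and all rows of the table.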

Additional observations from a re-analysis of the deposited data

Results flagged for a closer look

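Rows of the table to which the annotation gives no gene symbol were not part of the comparison, and some of them differed in KMS34. When the 33472 rows at or above the 25th percentile of all rows were tested together in the same limma model, 133 were called. Of the 19291 rows without a symbol 44 were called higher in KMS34 (0.228%) and 12 lower (0.0622%), beside 0.216% and 0.081% of the tested genes. Their genes are not named here.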

How the results depend on the processing

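All 33 genes kept the sign of their difference under every alternative in which they were tested. The counts of calls, 24 higher and 9 lower, depended on how the lines entered the fit. They were 0 and 0 on the means of 4 lines, 0 and 0 on the control arrays alone and 0 and 0 on the knockdown arrays alone, where 490 and 424 genes had an unadjusted p under 0.05. They were 207 and 75 with 8 arrays taken as independent, and 2709 and 2323 with cell line as a fixed effect, a fit that uses only the spread within lines. Leaving out 1 of the other lines gave 17 to 141 higher and 8 to 30 lower, the highest without KMS11. No filter on dim genes gave 42 and 9, a filter at the 50th percentile 5 and 4, where 26 of the 33 genes were tested, and an adjusted p under 0.01 gave 8 and 2. All rows of the table, an alternative chosen after seeing the data, gave 107 and 26 called rows. Quantile normalization gave 19 and 7, median centring 24 and 9, the mean of a gene's rows 24 and 10, trend and robust eBayes 30 and 9, an added 50 also 30 and 9, and a required 2-fold difference 24 and 9. Runs of neighbouring genes numbered 0 by calls of at least 3 or at least 4 genes and also with no filter, 135 when 3 genes had only to lie on 1 side of all other arrays, and, by rules added after seeing the data, 27 with 1.5-fold and 39 with 4 genes. The cause of these changes in count was not tested. A tally over settings covered the markers, the largest differences in each direction with their fill-up, and the called list members. The 3 outcomes were the same side of the threshold in 327 cases, no longer past it in 104 and newly past it in 29. Genes from UGDH to GSTP1, not called in the main fit, are included, and staying uncalled counts as the same side. Called genes outside the tally are CNTN1, RNF187, ELMOD1, RCAN2, SCAMP5, GOLIM4, IVD and KIF21A. The tally is thus no measure of how stable the calls were. Among the medians of the lists named in the report, those of glycolysis (0.27 to 0.48), ribosomal proteins (0.09 to 0.21), tetraspanins (0.06 to 0.30), antigen presentation (0.11 to 0.39), Wnt (-0.25 to -0.11) and cancer-testis genes (-0.75 to -0.26) kept their sign throughout. Those of B lymphocyte, plasma cell, annexin, interferon, unfolded protein response, metallothionein and stromal, endothelial and epithelial genes changed sign under at least 1 alternative. Genes near the dim limit may have understated differences, which was not tested. Since KMS34 is 1 line, the spread among lines like it was not measured.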

Other observations

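PEG10, an imprinted gene derived from a retrotransposon, measured 2381 in the control and 1953 in the knockdown culture of KMS34, and 43.4 to 963 (median 56.5) in the other lines, a log2 difference of 4.01 ± 1.32 (SE) that did not pass limma's test (adjusted p = 0.467). KMS11 was also far above the dim limit, with 963 and 880.5, while KMS18 had 43.4 and 54.0 and OPM2 49.9 and 58.9. Metallothionein genes, which encode small zinc-binding proteins, gave mixed values. MT2A measured 407 and 239 in KMS34 against 54.5 to 194 (median 69.2), and MT1X 1234 and 978 against 115 to 708 (median 219). Both lay above all 6 other arrays, with adjusted p-values of 0.741 and 0.576, while the median over the 7 tested members was -0.07 and changed sign under 2 alternatives.

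ASNS and DDIT4, which respond to amino acid and energy stress, lay above all other arrays without passing. ASNS, asparagine synthetase, measured 951 and 848 against 210.1 to 418 (median 323), with a difference of 1.53 (adjusted p = 0.438), and DDIT4, an inhibitor of mTORC1, measured 2485 and 2300.2 against 576 to 1488 (median 658), with a difference of 1.55 (adjusted p = 0.408). They were picked after their values were seen.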
